A study of Mus musculus with 18 samples.

Results

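The comparison set the mouse embryonic stem (ES) cell line R1 against the ES line ESC2, using every array whose label holds either line name. These were 6 of the 18 arrays analysed here, 3 of R1 and 3 of ESC2. R1 carries the strain label 129X1/SvJ x 129S1 F1 and ESC2 the label B6 x D2 F1. Cells of both lines had been grown with LIF on feeder fibroblasts treated with mitomycin C, in a medium with either serum (FBS) or Knockout serum replacement. Which line grew in which is not in the labels, so line, strain and medium cannot be told apart. Each line is a single line of its strain, and any difference is one between these 2 lines. The other 12 arrays came from iPS lines, which are reprogrammed from somatic cells: IP14D-1, IP20D-3 and IP36D-3 with the strain label of ESC2, and IP14D-101 with the label B6 x 129S2 F1. The arrays were of the Affymetrix type and took biotin-labelled total RNA. The design text calls the 3 arrays of a line biological replicates, but no label names separate cultures. The p-values and standard errors thus measure the spread between arrays of a line, pooled over all 6 lines, the iPS lines included.

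ES cells are derived from the inner cell mass of the blastocyst, and LIF, which acts through STAT3, holds them in a naive state close to that of the early epiblast. Cells that move on from it lower naive genes such as Zfp42 and Klf2 and raise genes of the primed, post-implantation epiblast such as Fgf5 and Otx2. Inbred strains differ in the ease with which they give ES lines, and the strain family of R1 is the classical source. Strains also differ in the sequence and copy number of some gene families, among them guanylate-binding proteins, MHC class I genes and clustered zinc finger genes, and probes designed on 1 strain may bind another strain's transcript less well.

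Values are log2 intensities with the SD over n = 3 arrays, or log2 differences of R1 minus ESC2 ± their standard error from limma, which also gave the adjusted p-values (Benjamini-Hochberg). The number of arrays limits the precision, and the median standard error of a difference was 0.11. Each gene was represented by 1 probe set. All 7 ES cell markers had a mean of at least 6 in both lines, and their summed intensity was 31080 to 31628 on the R1 arrays and 25810 to 26291 on the ESC2 arrays. Of 16 measured fibroblast markers, 14 lay under the array median of 4.90 in R1 and 11 in ESC2. Their summed intensity was 887 to 997 on the R1 arrays and 1113 to 1249 on the ESC2 arrays. Of these markers 4 were lower in R1. The sums cover these markers only. They leave out Tagln (12.01 in R1, 10.16 in ESC2) and Loxl1 (6.08 in R1, 4.75 in ESC2). Both are on the longer fibroblast list described below and were higher in R1. Of 8 primitive endoderm markers, 6 lay under the array median in either line. Signs of RNA quality moved with the lines: the 3' to 5' ratio of beta-actin was 1.13 ± 0.0072 in R1 and 1.53 ± 0.043 in ESC2, that of Gapdh was 0.958 ± 0.016 in R1 and 0.891 ± 0.018 in ESC2, and the 18S signal was 54.6 ± 5.02 in R1 and 213 ± 15.0 in ESC2 (SD, n = 3 each). Their part in the results was not tested. In bulk RNA, fewer cells of a type and less RNA per cell cannot be told apart.

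A call required a log2 difference of at least 1 together with an adjusted p below 0.05. By this rule 1479 of 18193 genes (8.13%) differed, 797 (4.38%) higher and 682 (3.75%) lower in R1. The median gene was 0.15 higher in R1, and differences are best read against that shift. Centring the differences on it gave 533 higher and 960 lower genes, and giving all arrays the same median gave 462 and 1047. Repeated quantile normalisation gave 868 and 642. Which direction held more genes thus depended on the scaling. By adjusted p alone, with no minimum difference, 10070 genes (55.4%) passed. At a difference of at least 2 there were 112 genes, 58 higher and 54 lower, and at 3 there were 18, 8 higher and 10 lower. For 488 called genes another probe set of the gene reached 6 in the higher line, and 92.9% of these 780 probe sets shared the direction of the call. Fewer, 423 of the 780, were themselves called the same way, in 306 of the 488 genes (62.7%). In 6 genes such a probe set was called the other way.

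The largest rise was that of Gbp2b, a guanylate-binding GTPase induced by interferon. Its levels were 8.86, 9.11 and 8.97 on the R1 arrays, against 3.19, 2.91 and 2.89 on the ESC2 arrays. All R1 arrays were bright and all ESC2 arrays lay under the array median, so the size of the difference, 5.99 ± 0.13 (adjusted p = 5.17e-16), is uncertain although its direction is clear. The 4 iPS lines held Gbp2b between 3.0 (IP36D-3) and 4.18 (IP14D-101), all under the array median. The adjacent genes on chromosome 3, Gbp3 and Gbp2, were higher in R1 too. Gbp2 had 8.53, 8.75 and 8.79 in R1, against 6.52, 7.09 and 6.94 in ESC2 (1.84 ± 0.13, adjusted p = 2.35e-09). Its arrays did not overlap, which held for 63.5% of all genes. Gbp3 had 4.81, 5.78 and 5.50 in R1, against 3.50, 3.75 and 3.75 in ESC2 (1.69 ± 0.18, adjusted p = 3.33e-07). As for Gbp2b, all ESC2 arrays lay under the array median, so this size is uncertain too. The 3 genes run from 142560016 to 142638008 on chromosome 3 (GRCm38.p6). Members of this family are alike in sequence, so a probe set may read more than 1 of them.

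The interferon list as a whole did not follow Gbp2b. Of its 40 measured genes, 5 were higher and 1 lower in R1 (15.0% called, against 8.13% of all genes). Their median difference was 0.14, against 0.15 over all genes. Besides the 3 Gbp genes the higher ones were Stat2, a subunit of the interferon-activated factor ISGF3 (1.44 ± 0.16), and the antiviral gene Ifit2 (1.08 ± 0.11), whose call ended under both centrings and without R1 replicate 3. Oasl2, of the oligoadenylate synthetase family, fell by 1.46 ± 0.17. Adding 16 before the log, which shrinks differences of dim genes, ended the calls of Stat2 (0.98), Ifit2 (0.60) and Oasl2 (-0.98). Gbp6, Gbp7 and Gbp8, further members of the family, differed by 0.12, -0.10 and 0.13 and were not called, and the interferon factors Irf7 and Irf9 stood at 0.15 and -0.36. Restricted to genes with a mean of at least 6 in the higher line, 2 of the list were higher and 0 lower. Factors of the interferon pathway bind a response element with the core GAAANNGAAA, which was searched on both strands of the 250 bases before each start in the RefSeq promoter table (GRCm38.p6). It stood in 978 of 32851 such stretches (2.98%), in 4 of the 5 genes called higher and in 12 of 23 uncalled list genes with a stretch. The antigen presentation list described below was searched too. There it stood in 0 of 7 genes called higher and 1 of 9 uncalled genes (B2m) with a stretch. A list gene counted if any of its stretches matched, so the counts of genes and the share of stretches are unlike measures. The 4 stretches are printed here because they hold the adjacent Gbp genes and Stat2. Capitals mark the matches, all on the opposite strand, and for Gbp3 2 of them overlap. Bases inside the annotated gene are left off for Gbp3 and Gbp2b. The RefSeq reference is C57BL/6J, not the strain of R1.
Gbp3 (chr3:142559794-142560015, plus strand): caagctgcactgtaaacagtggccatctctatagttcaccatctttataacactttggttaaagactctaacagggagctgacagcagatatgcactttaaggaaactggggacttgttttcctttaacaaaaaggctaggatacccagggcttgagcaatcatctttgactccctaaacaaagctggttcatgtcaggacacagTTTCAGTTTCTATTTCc
Gbp2b (chr3:142594597-142594815, plus strand): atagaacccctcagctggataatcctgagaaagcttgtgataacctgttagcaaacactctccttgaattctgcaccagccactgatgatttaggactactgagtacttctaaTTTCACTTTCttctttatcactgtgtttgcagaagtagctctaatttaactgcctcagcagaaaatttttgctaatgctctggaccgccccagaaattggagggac
Gbp2 (chr3:142620413-142620662, plus strand): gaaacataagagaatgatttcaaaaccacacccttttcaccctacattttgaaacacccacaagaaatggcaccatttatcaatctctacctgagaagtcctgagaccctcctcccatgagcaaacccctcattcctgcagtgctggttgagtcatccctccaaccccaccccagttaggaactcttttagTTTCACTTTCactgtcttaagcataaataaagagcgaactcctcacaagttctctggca
Stat2 (chr10:128270248-128270497, plus strand): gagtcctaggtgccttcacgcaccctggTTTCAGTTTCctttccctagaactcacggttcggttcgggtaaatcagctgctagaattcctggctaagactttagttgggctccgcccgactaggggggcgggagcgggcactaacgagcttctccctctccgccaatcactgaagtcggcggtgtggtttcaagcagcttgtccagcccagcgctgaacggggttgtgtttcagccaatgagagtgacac
A match is a description of the letters and not of binding, and 12 genes of the interferon list without a call carried one too.

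**Figure D1:**
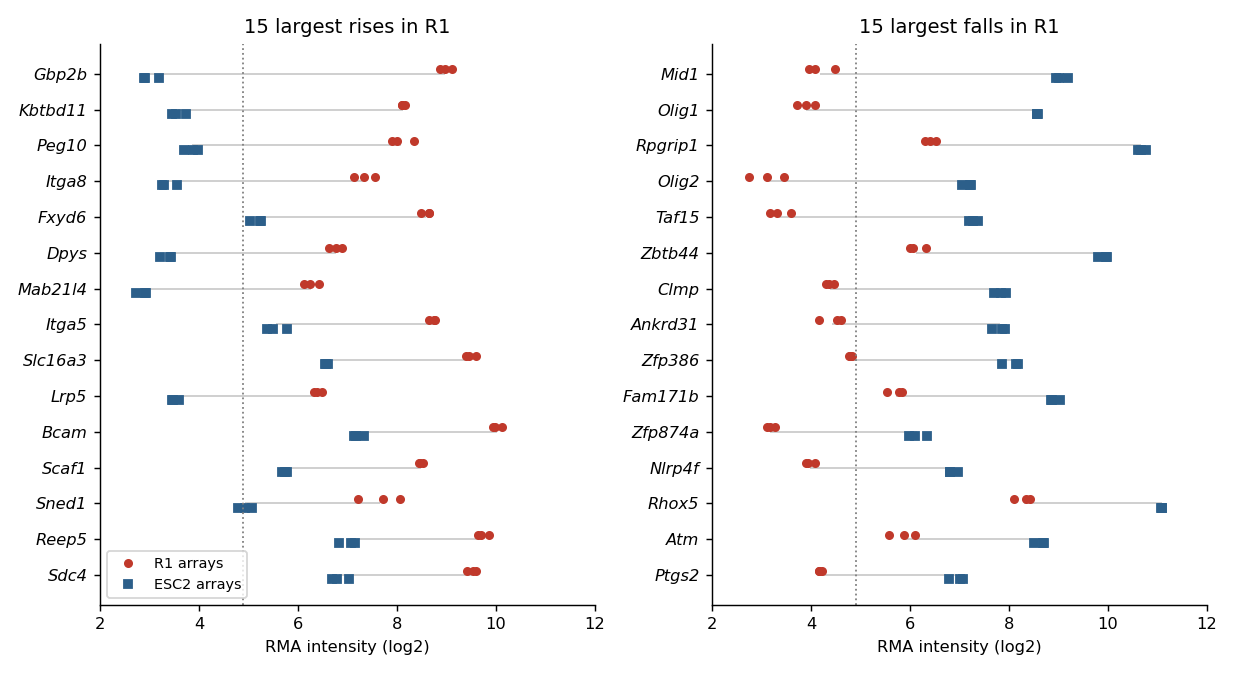
Log2 intensity on every array for the 15 largest rises (left) and the 15 largest falls (right) in R1; red circles are the 3 R1 arrays, blue squares the 3 ESC2 arrays, grey lines join the means, and the dotted line is the array median of 4.90. The 30 genes were picked so that the arrays of the lines lie apart, as they did in 63.5% of all genes. For many of the 30 one line sits under the dotted line, as Gbp2b does in ESC2 (2.99) and Olig1 in R1 (3.90).

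Genes of antigen presentation were among those higher in R1. MHC class I molecules carry peptides, made by the immunoproteasome and pumped by the Tap transporter, to the cell surface. Of 23 measured genes 8 were higher in R1 and 0 lower (34.8% called, against 8.13% of all genes). The median was 0.50, against 0.15 over all genes. H2-D1, a class I heavy chain, had 9.05, 9.01 and 9.10 in R1, against 7.07, 6.96 and 7.12 in ESC2 (2.00 ± 0.08, adjusted p = 1.11e-12). Another class I heavy chain, H2-K1, had 8.89, 8.84 and 8.92 in R1, against 7.70, 7.62 and 7.69 in ESC2 (1.22 ± 0.08, adjusted p = 1.12e-09). Neither gene's arrays overlapped, which held for 63.5% of all genes. Tapbp, which bridges class I molecules to the transporter, rose by 1.26 ± 0.09, the class I-like H2-Bl by 1.87 ± 0.16, and the immunoproteasome subunits Psmb8, Psmb9 and Psmb10 by 1.25, 1.18 and 1.09. The transporter subunit Tap1 rose by 1.17 ± 0.10 and lies between Psmb9 and Psmb8 on chromosome 17, where all 3 adjacent genes were called. B2m, the shared light chain, stood at 0.87 and passed the test without reaching a difference of 1. The class II genes H2-Aa, H2-Ab1 and H2-Eb1 differed by 0.75, 0.19 and -0.02 and were not called, nor were the class regulators Ciita (0.41) and Nlrc5 (0.12). Only 4 of the 8 other H2-D1 probe sets shared its direction, although the brightest of these rose by 2.13, and averaging all of its probe sets gave 0.71 and ended the call. It also ended that of Psmb8 (0.91). MHC alleles differ between strains and related genes share probes, so levels of single H2 genes are uncertain. With equal array medians 5 genes of the list were higher, as with averaged probe sets, and with centred differences 7.

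The naive genes were the list with the largest share of calls in R1. Of 17 measured genes 8 were higher and 1 lower (52.9% called, against 8.13% of all genes), with a median of 0.91. With equal array medians 6 of them were higher, and with centred differences 7. Zfp42 (Rex1), a marker of the naive state, had 11.25, 11.24 and 11.23 in R1, against 9.08, 9.09 and 9.16 in ESC2 (2.13 ± 0.07, adjusted p = 3.53e-13). The arrays did not overlap, which held for 63.5% of all genes. Klf5 and Klf2 are factors that can hold ES cells undifferentiated. Klf5 had 11.96, 11.84 and 11.86 in R1, against 10.23, 10.16 and 10.12 in ESC2 (1.72 ± 0.08, adjusted p = 1.61e-11). Its 2 dimmer probe sets differed by -0.14 each, and averaging all of its probe sets ended the call. Klf2 had 10.61, 10.42 and 10.55 in R1, against 9.08, 9.01 and 8.97 in ESC2 (1.5 ± 0.09). The regulators Tbx3 (1.48 ± 0.11), Esrrb (1.33 ± 0.10) and Tfcp2l1 (1.32 ± 0.09) followed, with Mybl2 (1.16) and Jam2 (1.10). With averaged probe sets 5 genes of the list were higher, and the call of Tfcp2l1 ended (0.53). Prdm14 (0.91), Klf4 (0.51) and Nr0b1 (0.44) stayed under the threshold and Nr5a2 stood at -0.21.

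Dppa3 (Stella), a maternal factor that protects imprints in the early embryo, went the other way. It had 6.61, 6.62 and 6.71 in R1, against 9.16, 9.29 and 9.20 in ESC2 (-2.57 ± 0.07, adjusted p = 1.66e-14). R1 had the lowest mean of the 6 lines, since the iPS lines averaged 8.40 (IP14D-101) to 9.43 (IP36D-3). Zfp42 stood at 11.01 in IP14D-101, close to R1, and at 9.21 to 9.89 in the other iPS lines. For Klf5, by contrast, ESC2 was the low line: the iPS lines averaged 11.17 to 12.23. Esrrb likewise averaged 9.16 to 10.34 in the iPS lines, against 8.15 in ESC2.

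Genes of the primed epiblast were lower in R1. Of 18 measured genes 0 were higher and 7 lower (38.9% called, against 8.13% of all genes), with a median of -0.61. The counts were the same under all 3 scalings. Otx2, a homeobox factor of the anterior epiblast, had 6.69, 6.45 and 6.55 in R1, against 8.60, 9.0 and 8.61 in ESC2 (-2.17 ± 0.16, adjusted p = 5.41e-09). Fgf5, the classical primed marker, had 4.97, 4.94 and 4.57 in R1, against 6.70, 7.18 and 6.72 in ESC2 (-2.04 ± 0.21, adjusted p = 2.31e-07). Both sets of arrays lay apart, as in 63.5% of all genes, and Fgf5 in R1 was near the array median. Also lower were N-cadherin (Cdh2, -1.66 ± 0.16), the activin antagonist Fst (-1.46 ± 0.17), the DNA methyltransferase Dnmt3a (-1.29 ± 0.12), and the factors Zic5 (-1.13) and Sox4 (-1.05). Pou3f1 (-0.45), Dnmt3b (-0.42) and Lef1 (-0.55) were not called. With averaged probe sets 4 genes of the list were lower, and the call of Dnmt3a ended. The levels of Otx2 in the iPS lines ran from 6.56 (IP20D-3) to 8.75 (IP36D-3), so the range within the iPS lines spanned both ES lines.

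Core pluripotency factors differed little beside this. Pou5f1 (Oct4) had 12.64, 12.64 and 12.63 in R1, against 12.21, 12.23 and 11.92 in ESC2 (0.52 ± 0.08, adjusted p = 1.77e-05), and Nanog 11.72, 11.87 and 11.61 against 11.29, 11.19 and 11.32 (0.47 ± 0.08, adjusted p = 0.000129). Sox2 was lower in R1, with 11.47, 11.68 and 11.59 against 11.92 to 12.07 in ESC2 (-0.42 ± 0.08, adjusted p = 0.000168). These arrays did not overlap, which held for 63.5% of all genes, and the differences were under 1. Klf4 stood at 0.51 ± 0.07 and the growth regulator Myc at -0.69 ± 0.09, also uncalled. Of the 18 core genes 1 was higher, Utf1, a chromatin-associated marker (1.14 ± 0.08, ended by both centrings). The 1 lower gene was Rif1, a regulator of replication timing (-1.35 ± 0.15). Together that was 11.1% called, near the 8.13% of all genes. Counts of 0 in 1 direction rest on limma's p and the minimum difference together: at an unadjusted p under 0.05 alone, 1 primed epiblast gene was higher, and 1 MHC gene, 2 immediate-early genes and 2 FGF and ERK genes were lower, as were 5 stress genes and 6 heat shock genes.

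**Figure D2:**
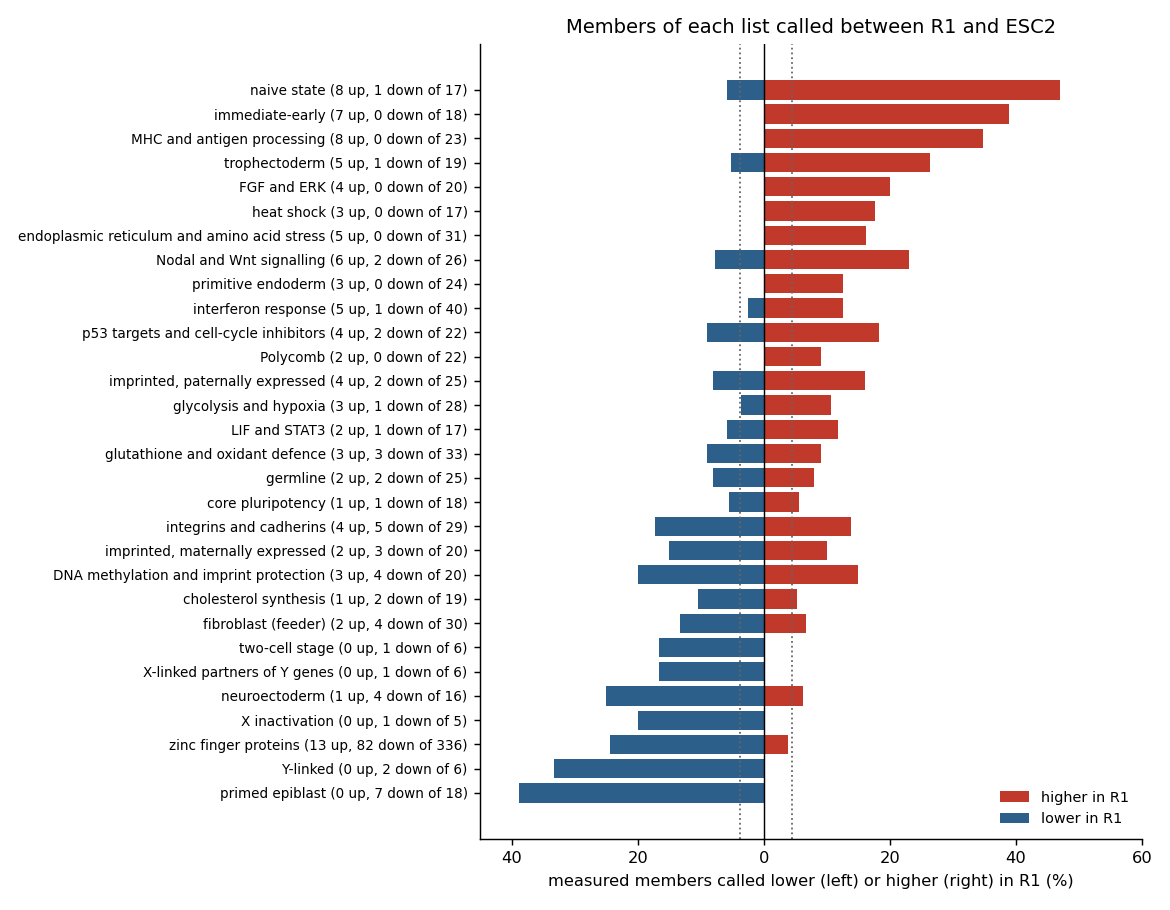
Share of the measured members of each gene list called higher (right, red) or lower (left, blue) in R1 against ESC2, with the counts in the labels; dotted lines mark the share over all genes, 4.38% higher and 3.75% lower. The naive, immediate-early and MHC lists lie to the right (8, 7 and 8 genes higher) and the primed epiblast list lies to the left (7 genes lower).

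Cell surface and signalling genes were among the largest rises. Itga8, an integrin alpha chain that binds matrix ligands with an RGD motif, had 7.33, 7.55 and 7.12 in R1, against 3.56, 3.25 and 3.29 in ESC2 (3.97 ± 0.13, adjusted p = 3.27e-13). Its second probe set rose by 3.35, and the iPS lines averaged 3.40 to 3.50, so R1 was the single line with a level above the array median. Itga5, the fibronectin receptor chain, had 8.76, 8.64 and 8.76 in R1, against 5.49, 5.77 and 5.38 in ESC2 (3.17 ± 0.11, adjusted p = 2.89e-13). The laminin receptor chain Itga3 rose by 2.65 ± 0.12 and Itgb4, another laminin receptor chain, by 1.26 ± 0.13. The integrin chains Itga1 (-1.74 ± 0.18) and Itgb8 (-1.63 ± 0.19) and the cadherins Cdh2, Cdh11 (-2.08 ± 0.15) and Cdh10 (-1.16) fell. Cdh11 lay under the array median in both lines, at 2.72 in R1 and 4.80 in ESC2, so the size of its difference is uncertain. Adding 16 before the log ended the calls of Cdh11 (-0.97), Cdh10 (-0.82), Itgb8 (-0.91) and Itgb4 (0.96), and averaging probe sets ended that of Cdh10 (-0.51). In all, 4 of 29 integrins and cadherins were higher and 5 lower (31.0% called, against 8.13% of all genes). Among genes with a mean of at least 6 in the higher line 2 were lower. E-cadherin (Cdh1), the cadherin of ES cells, differed by 0.23 and the common chain Itgb1 by 0.48, neither called.

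Lrp5, a Wnt co-receptor, had 6.31, 6.47 and 6.38 in R1, against 3.58, 3.46 and 3.47 in ESC2 (2.88 ± 0.17, adjusted p = 2.23e-10). The Wnt target Axin2 (1.14 ± 0.16), the Wnt acyltransferase Porcn (1.18) the Nodal pathway factor Foxh1 (1.41 ± 0.06) and the pathway inhibitor Smad7 (1.63 ± 0.08) were higher too. Apc, which drives beta-catenin destruction (-1.24 ± 0.15), and the Nodal antagonist Lefty2 (-1.14) were lower. Of 26 Nodal and Wnt genes 6 were higher and 2 lower (30.8% called, against 8.13% of all genes). With equal array medians, which ended the calls of Axin2 and Porcn, 3 were higher. Averaging probe sets ended the calls of Smad7, Axin2, Etv4 and Spry4. Of the 20 FGF and ERK genes the receptor Fgfr1 (1.34), the target Etv4 (1.33), Phlda1 (1.26) and the inhibitor Spry4 (1.16) were higher and 0 lower (20.0% called). The feedback phosphatase Dusp6 stood at -0.41. The LIF receptor Lifr was at -1.01 ± 0.10, a call that repeated quantile normalisation, averaging probe sets and leaving out R1 replicate 3 or ESC2 replicate 2 each ended. Stat3 differed by 0.67 and Socs3 by -0.40, uncalled.

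Immediate-early genes, which growth factors and stress induce within minutes, gave 7 higher and 0 lower of 18, with a median of 0.47. This was 38.9% called, against 8.13% of all genes. With equal array medians 5 were higher and 1 lower, and with centred differences 6 and 0. Junb, a subunit of the AP-1 factor, had 8.82, 9.03 and 8.83 in R1, against 6.03, 6.38 and 6.45 in ESC2 (2.61 ± 0.12, adjusted p = 1.26e-11). Jund had 10.57, 10.82 and 10.73 in R1, against 8.90, 9.07 and 9.03 in ESC2 (1.71 ± 0.10, adjusted p = 1.88e-10). Neither gene's arrays overlapped, which held for 63.5% of all genes. Srf, the serum response factor, rose by 1.56 ± 0.10, the mRNA-decay factor Zfp36 by 1.22 ± 0.11, the phosphatase Dusp1 by 1.20 ± 0.08, Jun by 1.18 and the nuclear receptor Nr4a1 by 1.12. Other members of the list were not called: Fos differed by 0.22, Fosb by 0.16, Egr1 by 0.52 and Egr2 by -0.04. Srf binds a motif known as the CArG box, which was searched as above and stood in 482 of 32851 stretches (1.47%). Among list genes with a stretch it stood in 2 of 7 called ones (Srf and Zfp36) and 1 of 7 uncalled ones (Egr2). These counts are again per gene, unlike the share of stretches. The stretch before Zfp36 is shown with the box in capitals.
Zfp36 (chr7:28379229-28379478, minus strand): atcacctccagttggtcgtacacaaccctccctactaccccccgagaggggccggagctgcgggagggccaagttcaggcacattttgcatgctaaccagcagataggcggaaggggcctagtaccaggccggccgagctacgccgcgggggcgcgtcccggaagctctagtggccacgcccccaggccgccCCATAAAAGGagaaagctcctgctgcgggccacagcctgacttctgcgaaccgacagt
The pattern of the box is symmetric, so the same place matches on both strands.

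Among trophectoderm genes 5 of 19 were higher and 1 lower (31.6% called, against 8.13% of all genes). The simple epithelial keratins Krt8, Krt18, Krt19 and Krt7 rose by 1.54 ± 0.14, 1.57 ± 0.16, 1.96 ± 0.13 and 1.31 ± 0.15, and the transcription factor Ets2 by 1.64 ± 0.07. Rhox6, a homeobox gene of the X chromosome, was lower (-1.07). Krt8 had 11.18, 11.35 and 11.34 in R1, against 9.64, 9.89 and 9.74 in ESC2, and the iPS lines held it at 7.95 to 10.09. The lineage regulators Cdx2 (0.21), Elf5 (-0.04) and Gata3 (0.59) were not called, and averaging probe sets ended the call of Ets2. Tagln, an actin-binding protein on the fibroblast list, also rose, by 1.85 ± 0.12, and averaged 7.87 to 10.76 in the iPS lines. Of the 30 genes on that list 2 were higher (Tagln and Loxl1) and 4 lower, namely the collagen crosslinker Lox (-2.16 ± 0.17), Cdh11 (under the array median in both lines), and the collagens Col1a2 (-1.45 ± 0.11) and Col5a2 (-1.42 ± 0.23). Col1a1 (-0.08), Col3a1 (-0.30) and Dcn (-0.37) were not called. The share of the fibroblast list called was 20.0%. With averaged probe sets 1 gene of the list was higher and 2 lower, and the calls of Loxl1 (0.75), Col1a2 (-0.76) and Col5a2 (-0.95) ended.

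Olig1 and Olig2, neighbouring genes on chromosome 16 for bHLH factors of the oligodendrocyte lineage, were both lower in R1. Olig1 had 4.08, 3.90 and 3.71 in R1, against 8.57, 8.58 and 8.56 in ESC2 (-4.68 ± 0.10, adjusted p = 3.79e-16). Olig2 had 2.74, 3.10 and 3.45 in R1, against 7.23, 7.04 and 7.22 in ESC2 (-4.07 ± 0.13, adjusted p = 2.27e-13). Every R1 array was under the array median and every ESC2 array well above it. The iPS lines averaged 7.82 to 9.22 for Olig1 and 6.90 to 8.22 for Olig2, so R1 was the single line of 6 without a level above the median for either gene. Among the 16 measured neuroectoderm genes the eye and brain factor Pax6 (-1.78 ± 0.13) and Neurod1 (-1.29 ± 0.18) were lower as well, and Nes, an intermediate filament of neural stem cells, was higher (1.28 ± 0.10). Sox1, an early neural marker, differed by 0.23 and Tubb3 by 0.31, uncalled. For Pax6 2 of the 4 other probe sets shared the direction, and averaging all of them ended the call.

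**Figure D3:**
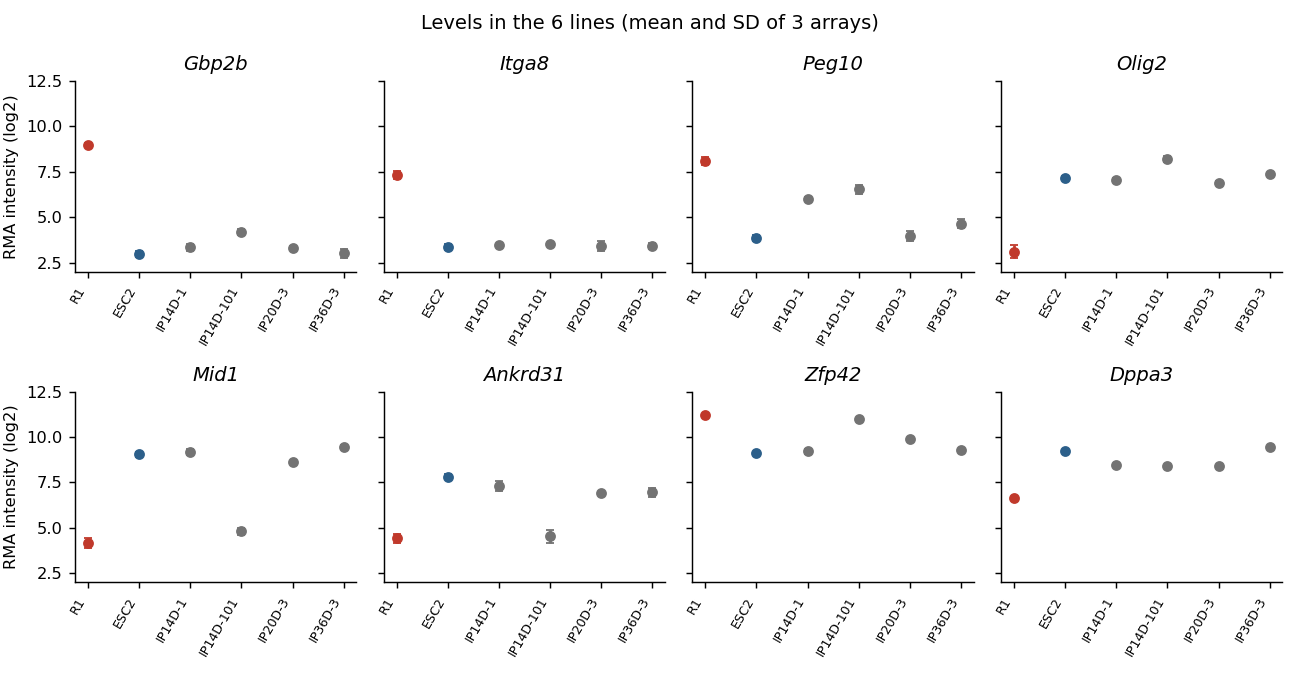
Mean log2 intensity with SD (n = 3 arrays) of 8 genes in R1 (red), ESC2 (blue) and the 4 iPS lines (grey). Gbp2b and Itga8 are high in R1 alone, Olig2 and Dppa3 are lowest in R1, and Mid1 and Ankrd31 are low in R1 and IP14D-101 (4.81 and 4.53) and high in the other 4 lines.

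Several of the largest falls had a second low line, IP14D-101, the single other line whose label names a strain of that family (129S2). Mid1, an X-linked ubiquitin ligase gene at chrX:169685199-169990798, had 3.96, 4.08 and 4.49 in R1, against 8.95, 9.01 and 9.19 in ESC2 (-4.87 ± 0.13, adjusted p = 1.68e-14). IP14D-101 averaged 4.81 and the 3 iPS lines with the label of ESC2 averaged 8.61 to 9.45. Ankrd31, a gene of meiosis, had 4.53, 4.15 and 4.60 in R1, against 7.91, 7.65 and 7.86 in ESC2 (-3.38 ± 0.17, adjusted p = 5.18e-11). IP14D-101 stood at 4.53 and the others at 6.95 to 7.31. The same order held for Taf15, an RNA-binding protein, at 3.36 ± 0.22 in R1 and 7.29 ± 0.09 in ESC2, with 4.10 in IP14D-101 and 6.78 to 7.45 in the other iPS lines. Zfp386 stood at 4.79 ± 0.03 in R1 and 8.06 ± 0.18 in ESC2, with 5.42 in IP14D-101 and 7.0 to 7.10 in the others. Fam171b stood at 5.71 ± 0.15 in R1 and 8.91 ± 0.10 in ESC2, with 6.33 in IP14D-101 and 7.29 to 8.82 in the others. The genes were picked for R1 against ESC2, so these levels are a description. Whether the probe sequences of these genes match these strains was not tested. For Mid1 and Taf15 the remaining probe sets differed by -0.22 to 0.20 and lay under the array median in both lines.

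Among the remaining large falls some had this order and some did not. Clmp, a cell adhesion molecule, was lower (-3.45 ± 0.10), also on its second probe set (-2.33), and averaged 4.38 in R1 and 7.83 in ESC2, with 6.18 in IP14D-101 and 7.40 to 7.67 in the other iPS lines. The DNA damage kinase Atm (-2.78 ± 0.16) averaged 5.85 in R1 and 8.63 in ESC2, with 7.59 in IP14D-101 and 8.57 to 8.87 in the others. Zbtb44 fell by 3.79 ± 0.15 and averaged 6.12 in R1 and 9.92 in ESC2, with 8.26 in IP14D-101 and 8.65 to 10.09 in the others, but another of its probe sets rose by 1.13 and averaging them gave -0.82. The order did not hold for Rpgrip1, Rhox5, Nlrp4f and Ptgs2. Rpgrip1, a protein of the photoreceptor cilium, had 6.30, 6.40 and 6.52 in R1, against 10.60, 10.66 and 10.76 in ESC2 (-4.27 ± 0.08, adjusted p = 3.79e-16), and IP14D-101 was at 10.82. Its 3 other probe sets differed by -0.36, 0.42 and 0.04 and lay under the array median in both lines. Rhox5, an X-linked homeobox gene, had 8.34, 8.11 and 8.43 in R1, against 11.10, 11.08 and 11.08 in ESC2 (-2.79 ± 0.10, adjusted p = 8.8e-13), and the iPS lines lay between 7.44 and 9.60, so ESC2 was the highest line. Nlrp4f (-2.89 ± 0.13) and the prostaglandin synthase Ptgs2 (-2.77 ± 0.20) were lower too, with 6.48 and 3.38 in IP14D-101.

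Further rises were led by Kbtbd11, a BTB-Kelch gene, with 8.10, 8.09 and 8.16 in R1, against 3.54, 3.73 and 3.45 in ESC2 (4.55 ± 0.16, adjusted p = 5.6e-13). The iPS lines averaged 3.30 to 4.62. Mab21l4 was also high in R1 alone, at 6.26 ± 0.16, against 2.85 ± 0.11 in ESC2 and 2.76 to 3.32 in the iPS lines. The ion transport regulator Fxyd6 (3.42 ± 0.12), the pyrimidine-degrading enzyme Dpys (3.41 ± 0.13), the lactate exporter Slc16a3 (2.91 ± 0.15), the laminin receptor Bcam (2.81 ± 0.09), Scaf1 (2.75 ± 0.11), Sned1 (2.72 ± 0.15) and Reep5 (2.72 ± 0.10) followed. Slc16a3 averaged 4.93 (IP20D-3) to 9.35 (IP14D-101) in the iPS lines. Sdc4, a heparan sulphate proteoglycan, rose by 2.68 ± 0.14 on its brightest probe set, while the other fell by 1.40.

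Imprinted genes moved one by one. Peg10, a paternally expressed gene of retrotransposon origin, had 7.90, 8.34 and 8.01 in R1, against 3.89, 3.69 and 3.98 in ESC2 (4.23 ± 0.16, adjusted p = 8.8e-13). The iPS lines spread between the ES lines, from 3.97 (IP20D-3) to 6.53 (IP14D-101). Its neighbour Sgce on chromosome 6, also paternally expressed, rose by 1.33 ± 0.11, though its dim second probe set stood at -0.11 and averaging both ended the call. Dlk1, a Notch ligand relative expressed from the paternal allele, had 8.32, 8.16 and 8.54 in R1, against 5.79, 5.80 and 5.93 in ESC2 (2.50 ± 0.13, adjusted p = 5.65e-11). Meg3, the maternally expressed RNA of the same region, fell by 1.16 ± 0.16 on its brightest probe set, with 10.22, 10.28 and 10.06 in R1, against 11.30, 11.33 and 11.39 in ESC2. Its 10 other probe sets differed by -1.31 to 0.38 and 1 of them was called, and averaging all gave -0.40, uncalled. Rian (0.23 ± 0.18, adjusted p = 0.277) and Mirg (0.60 ± 0.17), further maternal RNAs there, were not called, and Rian turned to -0.50 when its probe sets were averaged.

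The growth factor Igf2 rose by 1.66 ± 0.13, and Peg3 had 9.41, 9.59 and 9.53 in R1, against 11.74, 11.54 and 11.62 in ESC2 (-2.12 ± 0.09, adjusted p = 7.95e-12). The antisense RNA Kcnq1ot1 (-1.30 ± 0.28) and the ubiquitin ligase Ube3a (-1.54 ± 0.16) were lower. Averaging probe sets ended the calls of Igf2 (0.87) and Kcnq1ot1 (-0.88). Of 25 paternally expressed genes 4 were higher and 2 lower (2 and 1 with averaged probe sets), and of 20 maternally expressed ones 2 were higher and 3 lower. Both maternal rises, of Grb10 (1.03) and Osbpl5 (1.02), were lost under either centring, and leaving out any array but ESC2 replicate 3 left 1 of them. Among genes of DNA methylation and imprint protection 3 of 20 were higher and 4 lower (35.0% called). Zfp57, which guards imprints against demethylation, had 8.98, 8.74 and 8.85 in R1, against 6.25, 6.21 and 6.31 in ESC2 (2.60 ± 0.09, adjusted p = 5.95e-13). The iPS lines averaged 7.03 to 9.57. The histone methyltransferase Ehmt2 rose by 1.34 ± 0.10, whereas the oxygenase Tet1 (-1.37 ± 0.15) and the chromatin remodeller Atrx (-1.96 ± 0.23) were lower, besides Dnmt3a and Dppa3. Dnmt1 stood at 0.88 and Trim28 at 0.18.

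Zinc finger genes named Zfp plus a number were called lower in R1 more often than higher. Many of them code for KRAB zinc finger proteins, which silence transposable elements and lie in clusters that differ between strains. Of 336 measured genes 13 were higher and 82 lower in R1 (28.3% called, against 8.13% of all genes), with a median of -0.31. The set was chosen after the values were seen. Under the scalings it gave 7 higher and 102 lower, 8 and 98, and 13 and 81. The list mean was 6.15 in R1, against 6.53 in ESC2, and it was 6.21 in IP14D-101 and 6.46 to 6.58 in the other iPS lines. Besides Zfp386 the largest falls were Zfp874a (-2.96 ± 0.11), Zfp141 (-2.43 ± 0.19), Zfp935 (-2.0 ± 0.26) and Zfp52 (-1.97 ± 0.24). Zfp141 had 5.66, 6.10 and 5.43 in R1, against 7.91, 8.35 and 8.22 in ESC2, with no overlap, as in 63.5% of all genes. Chromosomes 17, 7 and 13 held 22, 14 and 12 of the 82, out of 43, 83 and 28 measured there. The higher ones included Zfp57, Zfp42 and Zfp36, which stand on other lists, and Zfp395 (2.17) and Zfp423 (1.55).

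Some neighbouring genes were called alike. Runs of at least 3 adjacent measured genes called in 1 direction numbered 19, 6 higher and 13 lower, and 6 of the lower runs held Zfp genes. On chromosome 17 Zfp54, Zfp51, Zfp53 and Zfp52, from 21423227 to 21563362, were all lower, at -1.18, -1.34, -1.59 and -1.97. A further run there joined Zfp955a, Zfp955b, Zfp81 and Zfp101, at -1.14, -1.28, -1.60 and -1.02. Genes of such clusters are alike in sequence, and shared probes were not tested. Among the higher runs were the Gbp and Psmb9 to Psmb8 runs already described and, on chromosome 7, Tomm40, Nectin2, Bcam and Cblc (1.04, 1.08, 2.81 and 1.08). A lower run on chromosome 10 held Kitl, the ligand of the receptor Kit (-2.49 ± 0.24), with Tmtc3 and Cep290 (-1.08 and -1.74). Of 617 X-linked genes 12 were higher and 57 lower (11.2% called), and chromosome 13 gave 14 higher and 56 lower of 702 (9.97%). Chromosome 11 leaned the other way, with 98 higher and 23 lower of 1443 (8.39%). Chromosome 17 had 65 higher and 33 lower of 834 (11.8%). Over all genes 8.13% were called, 4.38% higher and 3.75% lower.

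**Figure D4:**
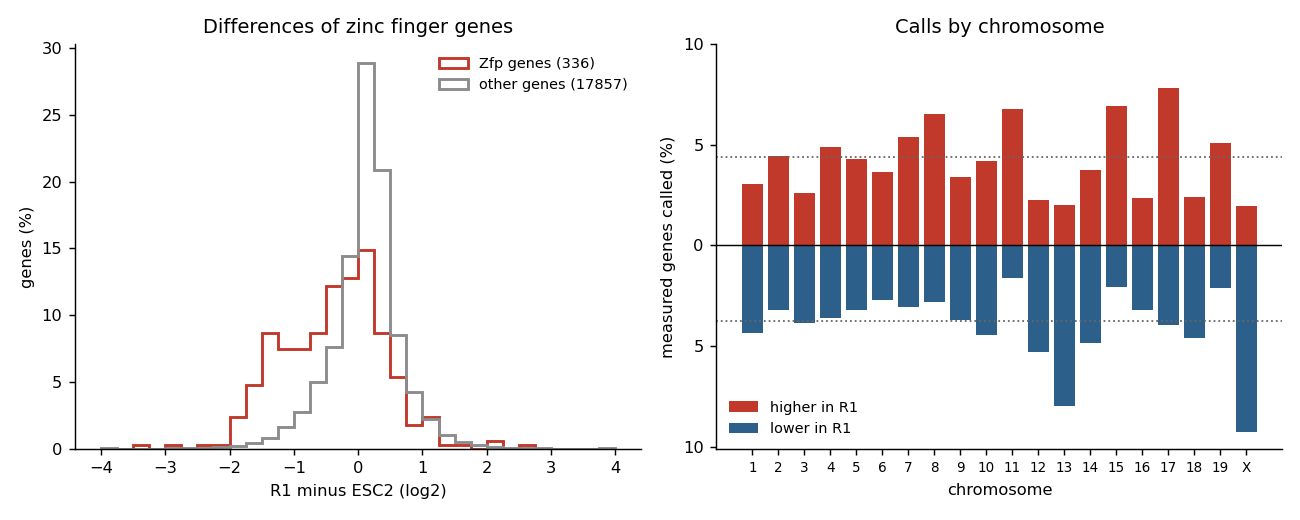
Left, distribution of the log2 difference of R1 minus ESC2 for 336 Zfp genes (red) and 17857 other genes (grey), in percent of each set; right, percent of the measured genes of each chromosome but Y (9 genes) called higher (up, red) or lower (down, blue) in R1, with the shares over all genes dotted. The Zfp curve reaches further to the left (median -0.31), and of the chromosomes drawn, X and 13 have the longest bars downward (9.24% and 7.98%).

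Sex-linked genes differed in part. On the Y chromosome Uty, a histone demethylase homologue, had 5.46, 5.64 and 5.46 in R1, against 7.33, 7.54 and 7.76 in ESC2 (-2.03 ± 0.20, adjusted p = 1.77e-07), and the translation factor Eif2s3y had 7.81, 8.13 and 7.87, against 9.23, 9.44 and 9.39 in ESC2 (-1.42 ± 0.12). Of 6 measured Y-linked genes these 2 were lower and 0 higher by limma, with 3 higher at an unadjusted p under 0.05, and Kdm5d differed by 0.11. Averaging probe sets ended the call of Eif2s3y (-0.78). Their X-linked relatives gave 1 call of 6, Zfx at -1.15 ± 0.12. Xist, the RNA that coats the inactive X chromosome, had 6.82, 7.06 and 6.78 in R1, against 6.57, 6.64 and 6.40 in ESC2 (0.35 ± 0.18, adjusted p = 0.116), and was not called. These levels come from 1 probe set. Its 2 other probe sets lay under the array median, at 2.57 and 2.56 in R1 and 2.50 and 2.57 in ESC2. The arrays of both lines thus carried Eif2s3y well above the array median.

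Long genes were lower in R1 more often than short ones. Genes called higher, at any level, had a median genomic span of 18.9 kb and genes called lower 33.7 kb. The median was 20.3 kb over all genes and 23.6 kb over genes with a mean of at least 6 in the higher line. The genes with a mean of at least 6 were put into 5 equal bins. From the shortest to the longest the median difference ran 0.18, 0.12, 0.06, -0.04 and -0.05. The share called lower was 4.04% in the shortest and 8.87% in the longest. The Zfp genes are not long (median 17.4 kb), and without them the lower genes had a median of 38.6 kb. The 3' to 5' ratios above moved with the lines in opposite directions for beta-actin and Gapdh, and their part in this pattern was not tested.

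Metabolic, stress and other lists below are read against all genes, of which 8.13% were called, 4.38% higher and 3.75% lower. The p53 list had 27.3% called, the glutathione list 18.2% and the heat shock list 17.6%. The Polycomb list had 9.09%, near the share over all genes. Of 31 genes of endoplasmic reticulum and amino acid stress 5 were higher and 0 lower, led by the glutathione-degrading enzyme Chac1 at 7.65 ± 0.25 in R1 and 5.63 ± 0.04 in ESC2 and by the mitochondrial enzyme Pck2 at 8.29 ± 0.11 in R1 and 6.87 ± 0.09 in ESC2. The iPS lines averaged 7.34 to 10.97 for Chac1 and 8.37 to 9.82 for Pck2, which left ESC2 the lowest line for each. The chaperone Hspa5 (-0.68), Atf4 (-0.26) and Trib3 (-0.26) were not called, and the centrings gave 2 and 3 higher genes of this list. Of 28 glycolysis and hypoxia genes Pfkl (1.89), Bhlhe40 (1.54) and Vegfa (1.12) were higher and Pdk1 (-1.12) lower, and either centring, averaged probe sets and adding 16 before the log each ended the call of Vegfa (0.90 to 0.98). Among 19 cholesterol synthesis genes the regulator Srebf2 (1.25) was higher, Idi1 (-1.24) and Insig1 (-1.07) were lower, the median of the list was -0.37, and either centring gave 5 lower. Of 22 p53 targets and cell-cycle inhibitors 4 were higher, among them the apoptosis gene Bbc3 (1.35) and the inhibitor Cdkn2a (1.24), and 2 lower, with Pmaip1 at -1.21. Cdkn2a lay under the array median in both lines, at 4.61 in R1 and 3.37 in ESC2, and adding 16 before the log ended its call (0.62). Averaged probe sets left 1 lower gene of this list. Of 17 heat shock genes the co-chaperone Bag3 (1.73), Hspb8 (1.28) and Hspb1 (1.25) were higher. Another probe set of Hspb8, with a mean of 7.06 in R1 and 7.35 in ESC2, differed by -0.29, and averaging its probe sets gave 0.57 and ended the call. Of 33 glutathione and oxidant defence genes 3 were higher, led by Gpx3 (1.92), and 3 lower, led by catalase, Cat (-1.39), with 1 higher and 4 lower under either centring. Of 24 primitive endoderm genes Cited1 (1.52), Col4a2 (1.12) and Gata6 (1.08) were higher, against 1 gene under either centring and 5 without R1 replicate 1. Gata6 lay under the array median in both lines, at 4.85 in R1 and 3.76 in ESC2. Polycomb genes gave 2 rises of 22, Pcgf2 (1.86) and Ring1 (1.26). Of 25 germline genes 2 were higher and 2 lower, Rhox5 and Tex15 (-1.33), and without ESC2 replicate 2 0 were higher. Primitive streak and mesoderm genes (17), Hox genes (33) and 11 loci with known strain variants gave 0 calls by limma, with 9, 9 and 6 genes at an unadjusted p under 0.05. Under either centring 2 mesoderm genes and 1 Hox gene were lower.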

How the data were processed

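Expression was measured on 18 Affymetrix arrays of 6 lines, 3 arrays each. The authors deposited linear intensities, 1 per probe set, that come from RMA, per the submitters' processing notes and the design text; no version is given in the sources used here. RMA includes quantile normalisation, which gives arrays near-equal distributions of probe set values and can spread a change common to many genes over the others. The deposited intensities were taken to log2 here. Of 45101 probe sets, 64 controls, 932 with several symbols and 9160 without one were left out. The other 34945 stood for 18193 genes, each represented by its brightest probe set (mean of the 18 arrays); 34741 probe sets had their gene in the RefSeq table (GRCm38.p6), which gave positions and promoters.

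limma 3.58.1 (R 4.3.3) fitted a mean per line over the 18 arrays (12 residual degrees of freedom), and the contrast R1 minus ESC2 was adjusted over all genes. A simulation of this contrast on 18193 genes recovered 99.5% of 200 genes changed by a log2 of 1.5 with 0 false calls. It drew independent noise of the observed spread within lines around gene means shared by all lines. No shift between lines, array effect or difference in RNA quality was simulated, so it gives no rate of false calls for these data. Tables and plots were made with Python 3.11.15, pandas 2.3.3, numpy 2.4.6 and matplotlib 3.10.9.

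The lines, lists and rule for named genes were chosen with earlier results of these data known. The rule names the 15 largest rises and 15 largest falls among called genes with a mean of at least 6 in the higher line and no overlap of arrays, leaving out clone and predicted symbols. It also names up to 5 called members of each of 32 lists in each direction and always Pou5f1, Nanog, Sox2, Klf4, Myc, Xist, Meg3, Rian, Mirg and Dlk1. Further members of lists, genes of neighbour runs, and Zfp395 and Zfp423 were named after their values were seen, as were the iPS levels set beside a gene. Alternatives changed the arrays fitted, the scaling, the filter on low values, the choice of probe set, the variance model, array weights, the threshold, a constant of 16 added before log2, the replicate block, and left out each array.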

Additional observations from a re-analysis of the deposited data

How the results depend on the processing

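No detection calls were used, and levels under the array median were not shown to lie above background; 87.6% of the called genes had a mean of at least 6 in the higher line. The 1479 calls (797 higher, 682 lower in R1) were the same in number with the 6 ES arrays alone and with a trended, robust variance. Both settings leave every difference unchanged and alter only the estimate of its spread. They could therefore hardly change calls that rest mainly on the minimum difference, and the equal counts are no sign of stability. Equal array medians gave 462 higher and 1047 lower genes. Adding 16 before log2 left 531 higher and 494 lower. Without a minimum difference 10070 genes passed, 6497 higher and 3573 lower. Testing all 34945 probe sets, 3210 (9.19%) were called, 1359 higher and 1851 lower, so that here falls outnumbered rises. Leaving out 1 array at a time gave 1423 to 1609 calls, with 781 to 850 higher and 642 to 759 lower. The replicate block, which likewise leaves the differences unchanged in this balanced design, gave 797 higher and 682 lower. It changed no call of a named gene. The deviations of same-numbered arrays correlated at 0.003, 0.037 and -0.021, so the numbers were not taken to pair the arrays. Of 151 named called genes, 96 kept their call under all alternatives that gave a value, 55 lost it under at least 1, and 0 turned; the uncalled Rian turned to -0.50 with averaged probe sets.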
